A study of Mus musculus with 30 samples.

Results

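The mitochondrial breakdown of threonine and glycine was followed through 5 genes in mouse embryonic stem cells (ESCs). The genes were Tdh, Gcat, Gldc, Amt and Gcsh, chosen by symbol from the Ensembl identifiers of a pair of RNA-seq count tables with 52630 and 55487 identifiers, and all 5 passed the filter on low counts in both (16049 and 16054 genes tested). All 30 libraries came from E14tg2a, an established mouse ESC line. In the time course, cells were in Serum/LIF (labelled 0 h) or in EMM for 3, 9 or 24 h, with 3 libraries per group. Serum/LIF is a serum medium with the cytokine LIF, glucose and pyruvate, and EMM (Enhanced Metabolic Media) is the same medium with D-galactose in place of D-glucose and pyruvate. The passage experiment compared Serum/LIF, EMM and 2i/LIF after 10 passages (P10) and after 20 (P20), again with 3 libraries per group. 2i/LIF is a medium with LIF and inhibitors of the kinases MEK and GSK3. The study's proteome methods list N2B27 as its base, while Serum/LIF and EMM were made with DMEM and serum. The parts of the base and of the inhibitors in differences with 2i/LIF were not tested. The labels say that the Serum/LIF cells of the time course were at 0 h, while the protocol text speaks of 24 h in that medium, and the sources used here do not settle which holds.

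Threonine dehydrogenase, encoded by Tdh, oxidises threonine with NAD+ in the mitochondrion, and the product is split by the Gcat enzyme into glycine and acetyl-CoA. Glycine is then taken apart by the glycine cleavage system, in which Gldc encodes the decarboxylase (P protein), Gcsh the lipoylated carrier (H protein), and Amt the aminomethyltransferase (T protein) that hands a one-carbon unit to tetrahydrofolate. Mouse ESCs and the inner cell mass are known for high Tdh and for a need for threonine, which feeds one-carbon units and S-adenosylmethionine.

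Tdh (ENSMUSG00000021953) lies on the minus strand of chromosome 14 from 63492347 to 63509092 of GRCm38, with 2615 bases of exon in the GENCODE M21 annotation. Gcat (ENSMUSG00000006378) is on the plus strand of chromosome 15 from 79030874 to 79038353, and Gldc (ENSMUSG00000024827) on the minus strand of chromosome 19 from 30098447 to 30175429. Amt (ENSMUSG00000032607) is on the plus strand of chromosome 9 from 108296853 to 108302302, and Gcsh (ENSMUSG00000034424) on the minus strand of chromosome 8 from 116981810 to 116993537. The 250 bases before the RefSeq start (GRCm38.p6) of Gcat and of Gldc are printed because the pair moved in opposite directions in 2i/LIF. Capitals mark matches on either strand to the letters searched.
Gcat, chr15:79030624-79030873, plus strand: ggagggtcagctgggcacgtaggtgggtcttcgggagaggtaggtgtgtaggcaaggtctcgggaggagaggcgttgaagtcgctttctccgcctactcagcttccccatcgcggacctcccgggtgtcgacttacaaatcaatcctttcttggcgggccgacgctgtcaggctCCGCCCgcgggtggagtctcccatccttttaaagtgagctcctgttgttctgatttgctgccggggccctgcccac
Gldc, chr19:30175442-30175691, minus strand: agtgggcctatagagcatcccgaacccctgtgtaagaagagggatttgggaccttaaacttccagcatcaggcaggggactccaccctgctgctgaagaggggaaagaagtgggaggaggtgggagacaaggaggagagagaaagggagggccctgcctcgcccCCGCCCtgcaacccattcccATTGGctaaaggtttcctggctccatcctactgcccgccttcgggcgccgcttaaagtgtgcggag
The Gcat stretch held 1 GGGCGG (GC box), and the Gldc stretch held 1 GGGCGG and 1 CCAAT, none of which overlapped. Of 32851 mouse stretches of the same length, 32.7% held GGGCGG and 33.8% held CCAAT. Neither stretch held CACGTG, TGACGTCA, TCAAGGTCA or TATAAA, which were in 6.02%, 1.55%, 0.387% and 12.4% of the stretches. Amt held 1 GGGCGG and 1 CCAAT and Gcsh 2 of each. These matches describe letters only.

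Total counts ran from 24074132 to 35301962 in the time course and from 6944904 to 27912928 in the passage experiment, and the shallowest, P20 2i/LIF replicate 1, also differed most from its group. All 10 ESC markers checked, Pou5f1, Nanog and Zfp42 among them, were above 3 counts in some library of every group. They summed to 6104 to 6675 CPM (counts scaled to library size) in the time course. In the passage experiment they summed to 4792 to 5219 in Serum/LIF, 6262 to 8387 in EMM and 5760 to 6477 in 2i/LIF at P10, and to 5229 to 5695, 4692 to 4798 and 6035 to 8012 at P20. Of the 10, 5 were higher in P10 EMM than in P10 Serum/LIF and 0 lower (18.7% of all genes each way), and in EMM 5 fell from P10 to P20 and 0 rose (11.9% and 13.3% of all genes). Against Serum/LIF, 2i/LIF was higher for 4 and lower for 2 at P10 (26.4% and 25.6%), and 2 each way at P20 (21% and 23.2%). Fibroblast markers (8 genes) summed to 147 to 175 CPM in P10 Serum/LIF and 235 to 465 in P20 Serum/LIF, against 12.3 to 24.7 in EMM and 5.58 to 7.96 in 2i/LIF. Of the 8, 1 stayed at or under 3 counts in each Serum/LIF group, 5 in P10 EMM, 2 in P20 EMM and 3 in each 2i/LIF group. Against Serum/LIF, 5 of 6 tested were lower and 1 higher in P10 EMM (18.7% of all genes each way). In P20 EMM 5 were lower and 0 higher (12.5% and 13.6%). For 2i/LIF it was 5 lower and 0 higher at P10 (25.6% and 26.4%), and 6 and 0 at P20 (23.2% and 21%). In the time course the fibroblast markers summed to 65.1 to 68.4 in Serum/LIF and 46.0 to 53.8 at 24 h. Primed epiblast markers (4 genes) summed to 731 to 742 CPM in the Serum/LIF libraries of the time course and 277 to 287 at 24 h, and to 679 to 808 in P10 Serum/LIF against 107 to 146 in P10 2i/LIF. In P20 EMM they summed to 449 to 496, not below the 407 to 453 of P20 Serum/LIF. Trophectoderm markers (6 genes) summed to 342 to 424 CPM in P10 Serum/LIF and 187 to 249 in P20 Serum/LIF, against 29.9 to 38.2 in EMM and 53.6 to 117 in 2i/LIF. In the time course they summed to 84.3 to 92.4 in Serum/LIF and 147 to 152 at 24 h, and 1 of the 6 stayed at or under 3 counts in both groups. At 24 h 3 of 5 tested were higher and 1 lower (21.8% and 22.2% of all genes). Primitive endoderm markers (8 genes) summed to 14.7 to 15.9 CPM in Serum/LIF and 25.4 to 26.2 at 24 h, where 4 were higher and 1 lower. At P10 they summed to 12.2 to 16.02 in Serum/LIF, 7.19 to 8.50 in EMM and 5.86 to 7.10 in 2i/LIF, and at P20 to 16.7 to 24.8, 19.0 to 28.9 and 5.42 to 8.72. Each of the 4 markers of the 2-cell state stayed at or under 3 counts in the time course. They summed to 7.54 to 13.9 CPM in P10 Serum/LIF, 18.7 to 43.2 in P20 Serum/LIF and 7.34 to 22.1 in P10 2i/LIF, against 0.418 to 2.69 in EMM and 0.284 to 1.78 in P20 2i/LIF. The part of these shifts in the results was not tested. In bulk RNA, fewer cells of a type and less RNA per cell cannot be told apart. Reads of near copies and overlapping genes could have been shared, and how such reads were assigned was not tested. Gm13929 (97.1% identical to Tdh over 1125 bases) had at most 26 counts. Gm17232, antisense to Tdh over 66 exonic bases, had 44 to 121 in the time course and at most 4 in the passage table. Cysltr2, 93.2% identical to Gcsh over 353 bases, had at most 172 counts. A second identifier with the symbol Gcat, listed in the passage table only, had 0 to 142 counts and shares 1132 exonic bases with the first, so the split of reads between them is uncertain. It was left out of the values below.

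Within 3 h of EMM, Tdh, Gcat and Gldc rose, by 1.24-fold, 1.18-fold and 1.37-fold, and Amt fell. After 24 h Tdh was still 1.27-fold above Serum/LIF, Gldc overlapped its Serum/LIF libraries, and Gcsh had dropped slightly. Of the 5 genes, 3 rose and 1 fell at 3 h, 3 rose and 1 fell at 9 h, and 2 rose and 1 fell at 24 h (adjusted p under 0.01, edgeR's quasi-likelihood test). Over all genes tested, 34.5% were called at 3 h (16.3% higher, 18.2% lower), 38.2% at 9 h (18.5% and 19.7%) and 44% at 24 h (21.8% and 22.2%). Of the 5 genes, 4, 4 and 3 were called in either direction. None of the 5 changed by a log2 size above 1, which 4.22%, 5.55% and 8.18% of all genes did.

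**Figure D1:**
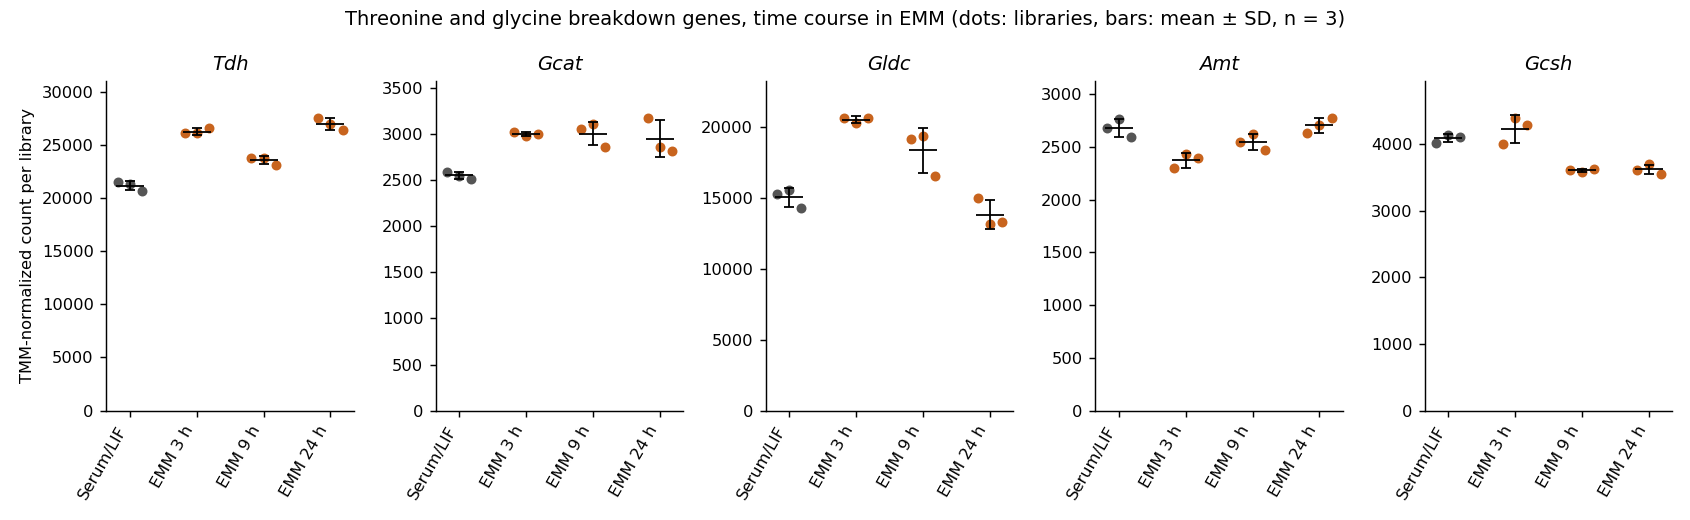
TMM-normalized counts (y axis, from 0, own scale in each panel) of the 5 genes in the 12 time-course libraries, by group on the x axis; dots are libraries and black bars the mean ± SD (n = 3). Tdh is above all 3 Serum/LIF libraries at every time in EMM, while Gldc peaks at 3 h with a mean of 20559 and is at 13832 at 24 h.

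The Tdh libraries held 21491, 21328 and 20651 normalized counts in Serum/LIF. They held 26072, 26067 and 26582 at 3 h, 23718, 23763 and 23109 at 9 h, and 27545, 26935 and 26423 at 24 h. All 9 EMM libraries were above all 3 Serum/LIF libraries, and the 9 h libraries formed a group of their own between Serum/LIF and the other times. The log2 fold changes against Serum/LIF were 0.31 (SE 0.03, edgeR adjusted p = 1.47e-06) at 3 h, 0.15 (adjusted p = 0.000912) at 9 h and 0.35 (adjusted p = 2.66e-07) at 24 h. Of the 5 genes 2 fell from 3 h to 9 h, where 26.5% of all genes were called (13.7% higher, 12.9% lower), and from 9 h to 24 h 1 rose and 1 fell (13%, or 7% and 6.02%). A log2 size above 1 was passed by none of the 5 in these steps and by 1.75% and 0.573% of all genes. Tdh moved in both, down by 0.16 on the log2 scale from 3 h to 9 h (adjusted p = 0.00112) and up by 0.20 from 9 h to 24 h (adjusted p = 0.000444). Serum/LIF libraries enter all 3 of the first comparisons, so these are not independent of each other. 3 h against 24 h was not compared.

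Gcat, which completes the conversion of threonine to glycine, held 2591, 2551 and 2512 normalized counts in Serum/LIF. In EMM it held 3022, 2979 and 2998 at 3 h, 3056, 3106 and 2860 at 9 h and 3179, 2859 and 2813 at 24 h. All 9 EMM libraries were above all 3 of Serum/LIF, and no later step was detected. The log2 fold changes were 0.23 (SE 0.05, edgeR adjusted p = 0.000772), 0.24 (adjusted p = 6e-04) and 0.21 (adjusted p = 0.00136). From 3 h to 9 h the difference was 0.00 (95% interval −0.09 to 0.10), and from 9 h to 24 h −0.03 (−0.13 to 0.07).

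Gldc, the glycine decarboxylase, rose early and was lower again at 24 h. Its normalized counts were 15270, 15581 and 14307 in Serum/LIF and 20682, 20300 and 20694 at 3 h. They were 19179, 19387 and 16561 at 9 h and 15009, 13179 and 13308 at 24 h. The 3 h libraries were above all others, and the 24 h libraries overlapped those of Serum/LIF. The log2 fold change was 0.45 (SE 0.06, edgeR adjusted p = 2.26e-05) at 3 h and 0.29 (adjusted p = 0.001) at 9 h, and −0.12 (95% interval −0.25 to 0.01, adjusted p = 0.101) at 24 h. From 3 h to 9 h it differed by −0.16 (adjusted p = 0.0447), which passed with no filter on low counts (adjusted p = 0.00272). From 9 h to 24 h Gldc fell by 0.41 on the log2 scale (adjusted p = 0.000216).

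Of the other subunits of the cleavage system, neither rose past the test in EMM. Amt held 2685, 2770 and 2597 normalized counts in Serum/LIF and 2297, 2436 and 2393 at 3 h, which differed by −0.18 on the log2 scale (SE 0.04; adjusted p = 0.00207 in edgeR). That call was lost without Serum/LIF replicate 2 (adjusted p = 0.019) or without 3 h replicate 1 (adjusted p = 0.0159), with the description's replicate number as a block (adjusted p = 0.012) and with no filter on low counts (adjusted p = 0.0229). At 9 h and 24 h Amt differed from Serum/LIF by −0.08 (95% interval −0.16 to 0.01) and 0.01 (−0.07 to 0.10). Gcsh, the lipoyl carrier, had a mean of 4094 ± 65.1 (SD, n = 3) in Serum/LIF and 4233 ± 207 (SD, n = 3) at 3 h, which overlapped. Its libraries held 3609, 3588 and 3629 at 9 h and 3614, 3698 and 3558 at 24 h, and all 6 of those libraries were below all 6 earlier ones. From 3 h to 9 h Gcsh fell by 0.23 on the log2 scale (adjusted p = 0.000225). The log2 fold changes of Gcsh were −0.18 at 9 h (SE 0.04, edgeR adjusted p = 0.00101) and −0.18 at 24 h (adjusted p = 0.00112). Both calls were lost without Serum/LIF replicate 2 (adjusted p = 0.011 and 0.0116), and the one at 24 h also without 24 h replicate 3 (adjusted p = 0.0108). With no filter on low counts both were lost as well (adjusted p = 0.0105 and 0.0144).

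After 10 and 20 passages the media differed for all 5 genes. In 2i/LIF, Tdh, Gcat and Amt were 2.00-fold, 2.21-fold and 2.31-fold higher than in Serum/LIF at P10, and Gldc was 1.76-fold lower. In EMM at P10, Tdh, Gcat and Amt lay between the other media, and Gldc was at its highest. At P20, Tdh and Amt in EMM overlapped Serum/LIF, while Gcat and Gldc were higher in EMM than in Serum/LIF.

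**Figure D2:**
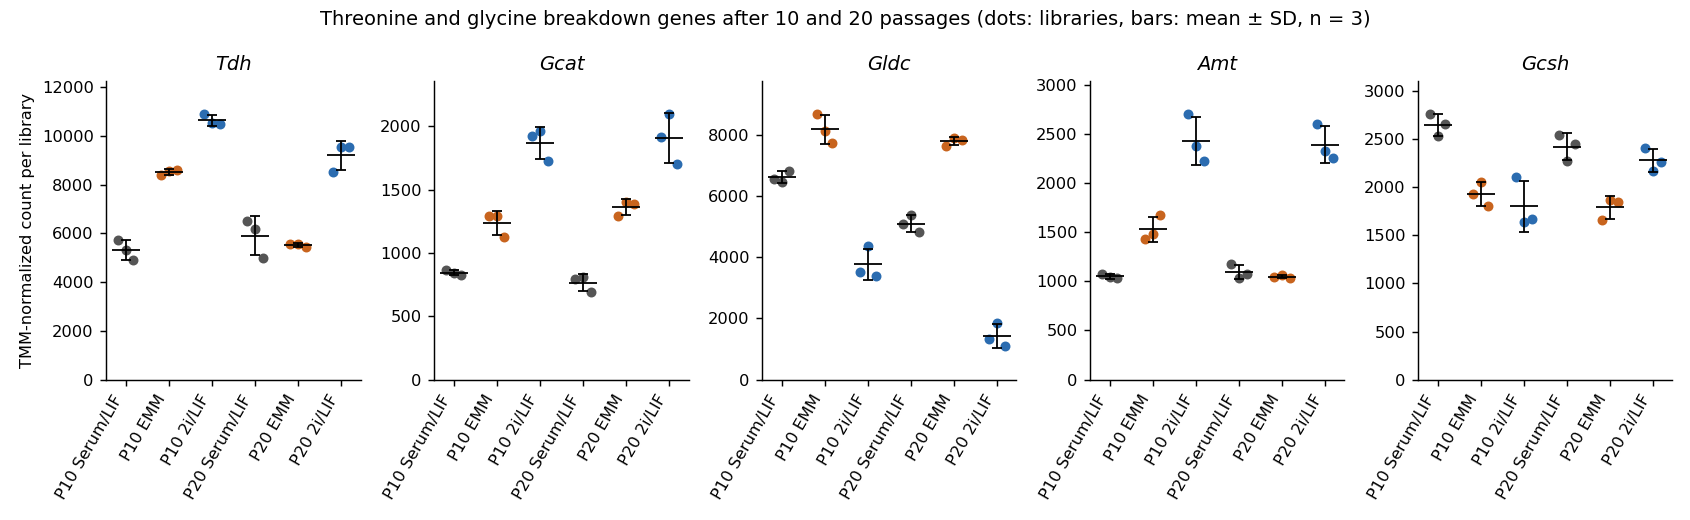
TMM-normalized counts (y axis, from 0, own scale in each panel) of the 5 genes in the 18 passage libraries, by medium and passage on the x axis; dots are libraries and black bars the mean ± SD (n = 3). Tdh, Gcat and Amt are highest in 2i/LIF at both passages, and Gldc is lowest there, with a mean of 1430 at P20.

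At P10 all 5 genes were called between 2i/LIF and Serum/LIF, 3 higher and 2 lower, where 52% of all genes tested were called (26.4% higher, 25.6% lower). Between EMM and Serum/LIF, 3 were above and 1 below, beside 37.4% of all genes (18.7% each way). EMM exceeded 2i/LIF for 1 gene and lay under it for 3, beside 45.1% (22.9% and 22.2%). At P20, 2i/LIF was above Serum/LIF for 3 genes and below it for 1, beside 44.2% (21% and 23.2%). EMM was above Serum/LIF for 2 genes and below it for 1, beside 26% (13.6% and 12.5%), and above 2i/LIF for 1 and below it for 4, beside 48.6% (25.7% and 22.9%). A log2 size above 1 was passed by Gcat and Amt in 2i/LIF against Serum/LIF at P10 (26.4% of all genes) and, with Gldc, at P20 (22.3%). It was passed by Gldc in EMM against 2i/LIF at P10 (22.1%) and by Gldc and Amt at P20 (25.3%), and by none of the 5 in EMM against Serum/LIF (17.1% at P10, 9.63% at P20). The 3 comparisons of a passage share libraries pairwise.

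Tdh in P10 libraries stood at 5736, 5305 and 4928 normalized counts in Serum/LIF. It stood at 8385, 8577 and 8618 in EMM and 10896, 10549 and 10478 in 2i/LIF, so the 3 media did not overlap. EMM was higher than Serum/LIF by 0.68 on the log2 scale (SE 0.08; adjusted p = 2.81e-06 in edgeR), and 2i/LIF higher by 1.00 (SE 0.08, adjusted p = 1.2e-08). EMM was lower than 2i/LIF by 0.32 on the log2 scale (−0.32, adjusted p = 0.00344). This last call was lost without P10 2i/LIF replicate 1 (adjusted p = 0.0107) or without P10 EMM replicate 1 (0.0141), 2 (0.0119) or 3 (0.0104). At P20 the libraries held 6531, 6172 and 5007 in Serum/LIF, 5576, 5575 and 5426 in EMM and 8510, 9547 and 9564 in 2i/LIF. EMM lay within the Serum/LIF range at P20 (log2 fold change −0.10, 95% interval −0.27 to 0.08, adjusted p = 0.396), and 2i/LIF stayed higher than Serum/LIF by 0.64 (adjusted p = 3.89e-06). Against 2i/LIF, P20 EMM was at −0.74 (adjusted p = 5.75e-07). Ordered by mean, Tdh fell from P10 2i/LIF (10641) through P20 2i/LIF (9207), P10 EMM (8527), P20 Serum/LIF (5903) and P20 EMM (5526) to P10 Serum/LIF (5323). The libraries of P20 2i/LIF and P10 EMM overlapped, as did those of the last 3 groups, so the order within these is not resolved.

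Gcat was higher in 2i/LIF and in EMM than in Serum/LIF at both passages. Its P10 normalized counts were 863, 845 and 825 in Serum/LIF, 1290, 1289 and 1125 in EMM and 1921, 1962 and 1724 in 2i/LIF. At P20 they were 796, 811 and 692, then 1289, 1404 and 1388, and 1917, 2095 and 1703 in the same order. The 3 media did not overlap at either passage. Against Serum/LIF, 2i/LIF was higher by 1.14 on the log2 scale (SE 0.09; adjusted p = 3.34e-09 in edgeR) at P10 and 1.31 (adjusted p = 7.7e-10) at P20. EMM was higher than Serum/LIF by 0.55 (adjusted p = 4.96e-05) and 0.83 (adjusted p = 1.07e-06). Against 2i/LIF it was at −0.59 (adjusted p = 1.49e-05) and −0.49 (adjusted p = 9.26e-05).

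Amt was highest in 2i/LIF at both passages. Its P10 normalized counts were 1075, 1044 and 1031 in Serum/LIF, 1431, 1485 and 1672 in EMM and 2698, 2373 and 2219 in 2i/LIF. At P20 EMM held 1038, 1063 and 1032, overlapping the Serum/LIF libraries at 1175, 1035 and 1075, while 2i/LIF held 2599, 2321 and 2251. The log2 fold change of 2i/LIF against Serum/LIF was 1.21 (SE 0.08, edgeR adjusted p = 7.44e-10) at P10 and 1.12 (adjusted p = 2.73e-09) at P20. For EMM it was 0.54 (adjusted p = 3.5e-05) at P10 and −0.07 (95% interval −0.24 to 0.11, adjusted p = 0.557) at P20. EMM against 2i/LIF gave −0.67 (adjusted p = 1.96e-06) and −1.19 (adjusted p = 7.63e-10).

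Gldc ran the other way in 2i/LIF. Serum/LIF libraries held 6561, 6452 and 6819 normalized counts at P10 and EMM libraries 8668, 8105 and 7740, against 3530, 4353 and 3397 in 2i/LIF. At P20 Serum/LIF held 5075, 5377 and 4818, EMM 7630, 7901 and 7831, and 2i/LIF 1325, 1863 and 1101. The media did not overlap at either passage, with EMM highest and 2i/LIF lowest. Gldc in 2i/LIF fell by 0.81 on the log2 scale relative to Serum/LIF at P10 (SE 0.13, edgeR adjusted p = 3.2e-05) and fell by 1.83 at P20 (SE 0.14, adjusted p = 2.83e-09). EMM exceeded 2i/LIF 2.17-fold at P10 (log2 fold change 1.12, adjusted p = 1.06e-06) and 5.42-fold at P20 (2.44, adjusted p = 4.91e-11). EMM against Serum/LIF gave 0.31 at P10 (95% interval 0.03 to 0.58, adjusted p = 0.059) and 0.61 at P20 (adjusted p = 0.00115).

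Gcsh had its highest means in Serum/LIF at both passages, where at P20 2i/LIF overlapped it. At P10 its means were 2648 ± 115 (SD, n = 3) normalized counts in Serum/LIF, 1929 ± 125 (SD, n = 3) in EMM and 1805 ± 266 (SD, n = 3) in 2i/LIF. EMM was lower than Serum/LIF at both passages, with log2 fold changes of −0.46 (SE 0.09, edgeR adjusted p = 0.000391) and −0.44 (adjusted p = 0.000854). In 2i/LIF it was lower by 0.55 on the log2 scale at P10 (−0.55, adjusted p = 3.42e-05), and at P20 it overlapped Serum/LIF (−0.09, 95% interval −0.28 to 0.10). Gcsh lies on chromosome 8, where the median gene differed by 0.447 (log2) in P20 2i/LIF against P20 Serum/LIF, and less that median the Gcsh difference was −0.54. For P20 EMM against P20 2i/LIF, Gcsh was at −0.35 (adjusted p = 0.00272) with a chromosome median of −0.291, which leaves −0.06. That call was lost without P20 2i/LIF replicate 1 (adjusted p = 0.0111) or P20 EMM replicate 1 (adjusted p = 0.021).

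Between passages, calls were made in EMM and in 2i/LIF. In Serum/LIF 0 of the 5 were called by edgeR between P20 and P10, 1 at an unadjusted p under 0.05 and 0 by DESeq2, where 6.01% of all genes were called (3.16% higher, 2.85% lower, and 1.84% by a log2 size above 1). Gldc was the 1, lower at P20 in all 3 libraries with a log2 fold change of −0.38 (95% interval −0.65 to −0.10, adjusted p = 0.0584). In EMM 2 fell, where 25.3% of all genes were called (13.3% higher, 11.9% lower, and 8.54% by a log2 size above 1): Tdh by 0.63 on the log2 scale (SE 0.08, adjusted p = 1.89e-05) and Amt by 0.55 (adjusted p = 6.83e-05). In 2i/LIF 1 rose and 1 fell, where 28.3% of all genes were called (13.1% higher, 15.2% lower, and 10.1% by a log2 size above 1). Gldc in 2i/LIF fell by 1.39 on the log2 scale (SE 0.14, adjusted p = 4.75e-07), and all 3 P20 libraries were below all 3 of P10. Gcsh in 2i/LIF rose by 0.34 (adjusted p = 0.00601) where chromosome 8 as a whole rose by a median of 0.322, and 0.02 was left less that median. The Gcsh call was lost without P10 2i/LIF replicate 2 (0.0409) or 3 (0.0371) or P20 2i/LIF replicate 1 (0.0266) or 3 (0.014), all adjusted p, and with only the groups compared (adjusted p = 0.0623).

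**Figure D3:**
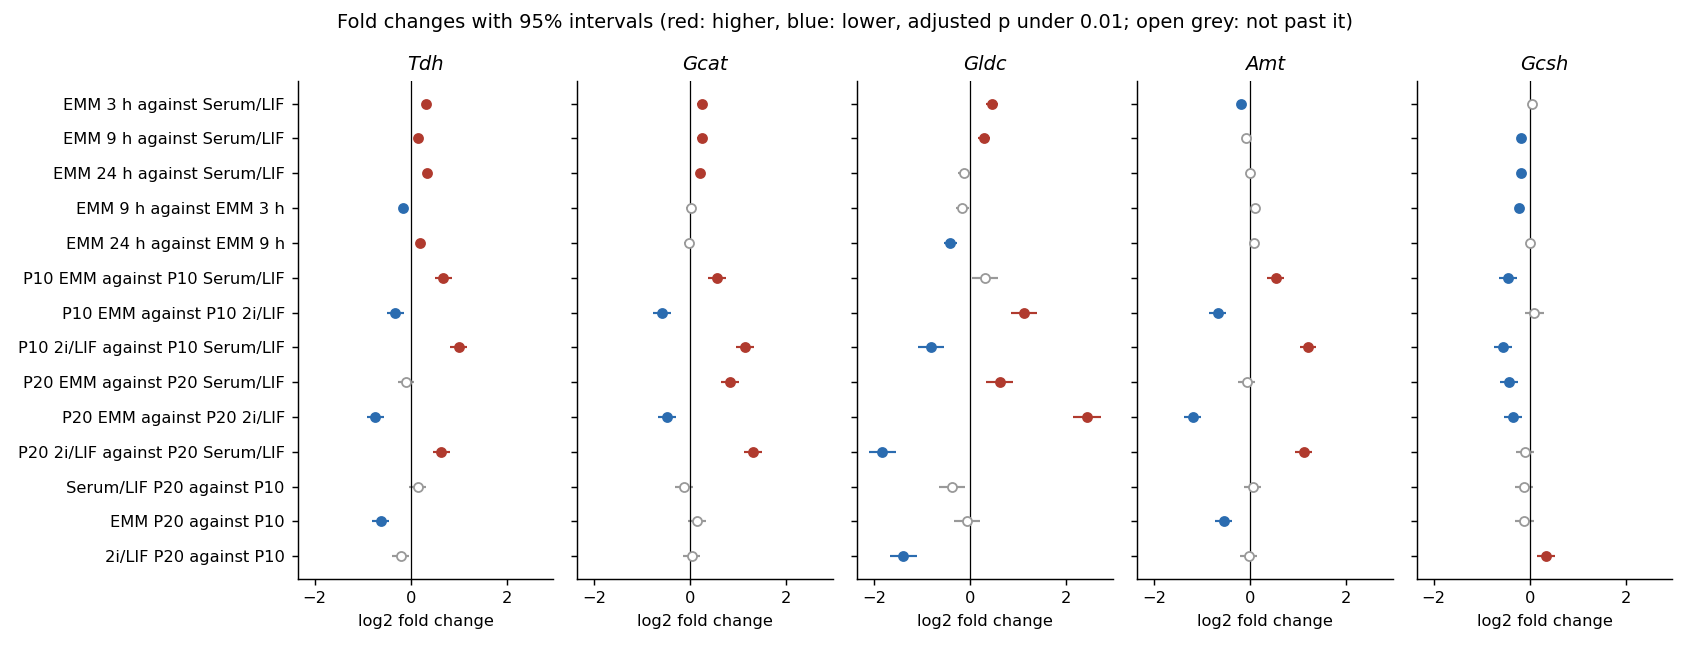
Log2 fold change (x axis) of each gene in 14 comparisons (y axis, first group against the second) with its 95% interval from the edgeR fit. Filled points passed an adjusted p of 0.01 (red up, blue down) and open grey points did not; Gldc runs from −1.83 to 2.44 while Gcsh stays between −0.55 and 0.34.

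Differences between media that changed with passage were tested as interactions, P20 less P10. For EMM against Serum/LIF 2 of the 5 genes passed, where 14.7% of all genes did (8.28% higher, 6.43% lower, and 8.4% past a log2 size of 1): Tdh at −0.78 (SE 0.12, edgeR adjusted p = 0.000111) and Amt at −0.61 (adjusted p = 0.00096). Both were above Serum/LIF at P10 and overlapped it at P20. In the same interaction 7 of the 10 ESC markers were lower and 0 higher (median −0.72), and 4 of the 4 primed epiblast markers were higher (median 2.47), against a median of −0.01 over all genes. Their part in the Tdh and Amt values was not tested. Gcat was at 0.28 (95% interval 0.01 to 0.54, adjusted p = 0.117). For 2i/LIF against Serum/LIF 2 passed, where 20% of all genes did (9.16% higher, 10.9% lower, and 9.32% past a log2 size of 1): Gldc at −1.01 (SE 0.19, adjusted p = 0.000583) and Gcsh at 0.47 (adjusted p = 0.00901). The chromosome 8 median of that interaction was 0.388, and less it Gcsh was at 0.08. For EMM against 2i/LIF 4 passed, where 32.3% of all genes did (16.9% higher, 15.4% lower, and 16.5% past a log2 size of 1), and the values were 1.32 for Gldc (adjusted p = 2.37e-05), −0.52 for Amt (0.00149), −0.42 for Tdh (0.00815) and −0.45 for Gcsh (0.00841). The Tdh call there was lost in 10 of the 12 fits that left out a library, with adjusted p from 0.0126 to 0.0212, and it was kept without P10 2i/LIF replicate 1 or P20 2i/LIF replicate 1. Gcsh lost its call in 10 of 12 fits for 2i/LIF against Serum/LIF (adjusted p from 0.0123 to 0.0301) and kept it without P10 2i/LIF replicate 1 or P20 2i/LIF replicate 2. For EMM against 2i/LIF it was lost in 9 of 12 (0.0121 to 0.0286) and kept without either of these or without P10 EMM replicate 3.

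Per length of exon, Tdh was the highest of the 5 genes in all 10 groups. Its level was 274 ± 5.76 RPKM (reads scaled to exon length and library size; SD, n = 3) in the Serum/LIF libraries of the time course and 349 ± 7.27 (SD, n = 3) at 24 h of EMM, and its passage means ran from 130 to 261 RPKM. In P20 EMM, Gldc was second at 81.9 RPKM, before Gcsh (72.7), Gcat (36.6) and Amt (27.5). In P20 2i/LIF the order after Tdh was Gcsh (92.6), Amt (62.9), Gcat (51.2) and then Gldc, whose libraries ran from 11.6 to 19.6. Set against Tdh, the length-scaled level of Gldc was 0.305 ± 0.008 (SD, n = 3) in Serum/LIF, 0.336 ± 0.004 at 3 h, 0.335 ± 0.024 at 9 h and 0.220 ± 0.012 at 24 h. After 10 passages the Gldc/Tdh ratio was 0.536 in Serum/LIF, 0.412 in EMM and 0.152 in 2i/LIF, and after 20 it was 0.374, 0.605 and 0.0667. Every P20 2i/LIF library (0.0494 to 0.0838) was below every other library. The Amt/Gldc ratio within the cleavage system was 1.64 in P10 2i/LIF and 4.38 in P20 2i/LIF, against 0.335 to 0.539 in the other passage groups. These ratios are descriptions, set within each table.

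**Figure D4:**
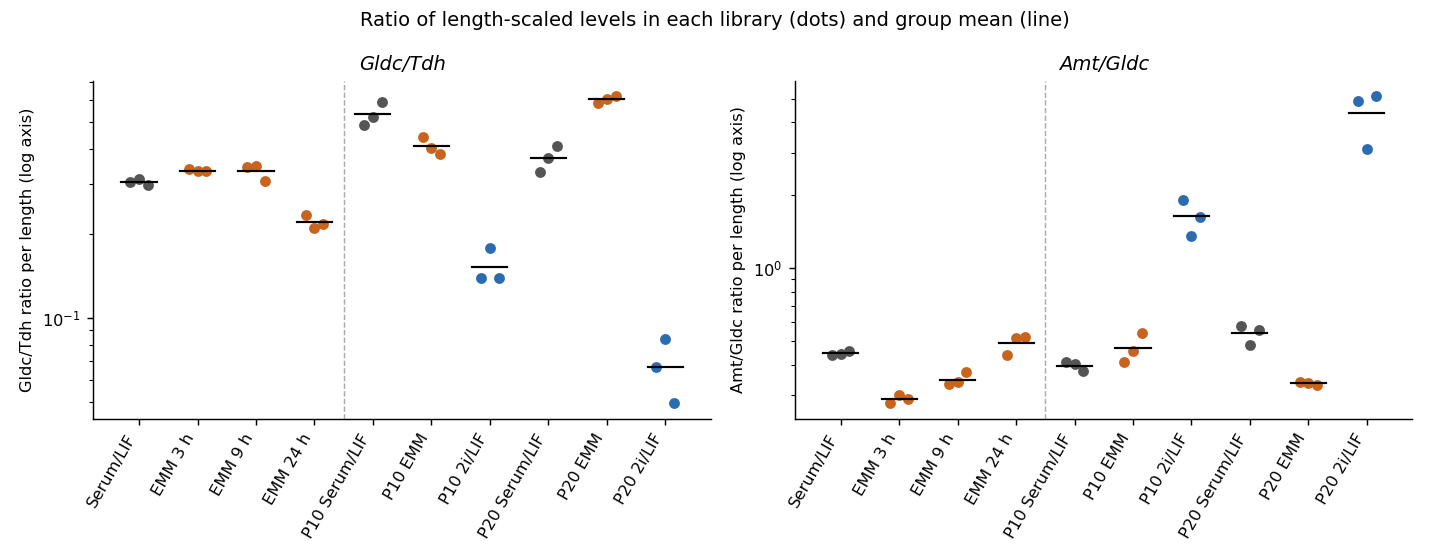
Ratio of length-scaled levels (y axis, log scale) of Gldc to Tdh (left) and of Amt to Gldc (right) in each library, by group on the x axis with the time course left of the dashed line; dots are libraries and lines group means. The 2i/LIF libraries sit lowest for Gldc/Tdh and highest for Amt/Gldc, at means of 0.0667 and 4.38 in P20.

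Other genes of threonine, glycine and one-carbon metabolism were read from 7 lists of 48 genes. Of the 44 tested in the time course, 5 rose and 13 fell at 3 h, 7 rose and 22 fell at 9 h, and 5 rose and 25 fell at 24 h, beside 34.5%, 38.2% and 44% of all genes called. The median log2 fold change of the 44 at 24 h was −0.31, against 0.00 over all genes. The genes of serine synthesis, which supply glycine by another route, fell in all 3 cases at 9 h and 24 h. At 24 h the fall was by 1.59 on the log2 scale for Psat1 (SE 0.04, edgeR adjusted p = 4.85e-13), by 1.38 for Psph and by 1.11 for Phgdh. Psat1 went from 14343 ± 286 (SD, n = 3) normalized counts in Serum/LIF to 4751 ± 160 (SD, n = 3). Of 12 genes of serine and glycine exchange and folate carriers, 1 rose and 7 fell at 24 h. Aldh1l1, which oxidises formyl-tetrahydrofolate in the cytosol, rose by 1.70 (adjusted p = 8.41e-11), and its mitochondrial relative Aldh1l2 fell by 1.59 (adjusted p = 3.41e-06). Mthfd2 and Shmt2, the mitochondrial enzymes that handle the one-carbon unit and convert serine to glycine, fell by 0.96 (adjusted p = 2.26e-10) and by 0.47 (adjusted p = 1.65e-07).

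Among the partners of the 5 genes, 3 of 4 fell at 24 h, where 22.2% of all genes tested fell and 21.8% rose. Dld, the shared dehydrogenase (L protein) of glycine cleavage and other complexes, was at −0.01 at 24 h (SE 0.04, edgeR adjusted p = 0.799). The lipoylation enzymes Lias and Lipt2, which build the lipoyl arm on Gcsh, and Lipt1, which transfers lipoyl groups to other complexes, fell at 24 h by 0.20 to 0.51 on the log2 scale. Tha1, a threonine aldolase, was at 33.3 ± 5.77 normalized counts in Serum/LIF and passed no test in the time course, and Sds and Sdsl, threonine and serine dehydratases, had at most 5 counts in any library. Of 10 transporters, 2 rose and 7 fell at 24 h, with Slc36a1 up by 0.43 (adjusted p = 4.02e-06) and the glycine transporter Slc6a9 down the most (−1.02, adjusted p = 3.89e-05). Of 6 tested genes of the methionine and S-adenosylmethionine cycle 2 fell at 24 h, Gnmt by 1.74 (adjusted p = 3.57e-06) and Ahcy by 0.42. Of 8 genes that use glycine or threonine 2 rose and 3 fell, with Gss, glutathione synthetase, at 0.43 (adjusted p = 1.27e-05) and Gars, glycyl-tRNA synthetase, at −0.73 (adjusted p = 4.93e-10).

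Over the passages, 46 of the list genes were tested. EMM was above Serum/LIF for 11 and below it for 17 at P10 (8 and 12 at P20), which is 60.9% and 43.5% of the list genes beside 37.4% and 26% of all genes. 2i/LIF was above Serum/LIF for 12 and below it for 21 at P10 (12 and 10 at P20), or 71.7% and 47.8% beside 52% and 44.2%. EMM was above 2i/LIF for 13 and below it for 11 at P10 (11 and 17 at P20), or 52.2% and 60.9% beside 45.1% and 48.6%. Serine synthesis was lower than in Serum/LIF in EMM at both passages for all 3 genes, with Psat1 at −2.47 (SE 0.07, edgeR adjusted p = 3.29e-14) at P10 and −1.23 (adjusted p = 4.41e-10) at P20. In 2i/LIF the 3 genes were lower at P10, Phgdh the most (−2.04, adjusted p = 1.17e-07), and none of the 3 passed the test at P20 (Psph was past an unadjusted p of 0.05 and not past the adjusted one, at 0.0409). Aldh1l1 was the largest rise of its list in 2i/LIF, at 4.03 (adjusted p = 1.78e-10) at P10 and 3.79 (adjusted p = 5.74e-10) at P20. Bhmt, which remethylates homocysteine with betaine, had 502 ± 304 (SD, n = 3) normalized counts in P10 2i/LIF and 5.98 ± 5.18 (SD, n = 3) in P10 Serum/LIF, a log2 fold change of 6.41 (adjusted p = 4.99e-08). Mat1a, a methionine adenosyltransferase, was at 0 counts in all P10 EMM libraries and at 18.5 ± 8.17 (SD, n = 3) normalized counts in P10 Serum/LIF, so its plotted fold change there depends on the prior count. Gss was 2.70 higher on the log2 scale in P10 2i/LIF than in P10 Serum/LIF (adjusted p = 1.31e-11), and Gatm, which turns glycine and arginine into a creatine precursor, fell by 4.19 at P20 (adjusted p = 3.5e-07). Aldh1l1 was also the largest rise of its list in P10 EMM (2.35, adjusted p = 3.75e-07), and the largest fall was that of Mthfd2l, at −1.68 in P10 EMM, −1.85 in P10 2i/LIF and −3.19 in P20 2i/LIF. Of the 10 transporters, P10 2i/LIF was above Serum/LIF for 3 and below it for 7, from Slc36a1 at 1.36 (adjusted p = 1.16e-08) to Slc1a4 at −2.05 (adjusted p = 1.72e-09). In P10 EMM they ran from Slc25a38, a mitochondrial glycine carrier, at 0.77 to Slc38a4 at −2.69 (1 above, 4 below). Shmt2 was called in 1 of these 4 comparisons with Serum/LIF (0.39 in P10 EMM), and Mthfd2 was at −1.08 and −0.76 in EMM, −1.61 in P10 2i/LIF and 0.28 (adjusted p = 0.0237) in P20 2i/LIF. Dld was lower than in Serum/LIF in both media at both passages, at −0.23 and −0.27 for EMM and −0.41 and −0.53 for 2i/LIF.

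In 2i/LIF from P10 to P20, where Gldc fell, 17 of the 46 list genes rose and 6 fell there, and 50% were called beside 28.3% of all genes. All 3 genes of serine synthesis rose, Psat1 by 1.33 on the log2 scale (SE 0.07; adjusted p = 3.28e-10 in edgeR), Psph by 1.14 and Phgdh by 1.06. Mthfd2 rose by 1.96 (adjusted p = 3.74e-10), Shmt2 by 0.70 (adjusted p = 3.96e-05) and the amino acid transporter Slc7a5 by 1.69 (adjusted p = 1.15e-09). Mthfd2l fell by 1.66 (adjusted p = 0.00138) and Gclc, which starts glutathione synthesis, fell by 1.10 (adjusted p = 2.16e-06). In EMM from P10 to P20 9 rose and 6 fell, 32.6% beside 25.3% of all genes, Slc38a4 the most upward (1.74, adjusted p = 1.58e-07) and Gss the most downward (−1.07, adjusted p = 1.22e-05). In Serum/LIF 1 of the 46 was called (2.17%, beside 6.01% of all genes), Psat1, which fell by 0.28, and 16 were at an unadjusted p under 0.05.

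**Figure D5:**
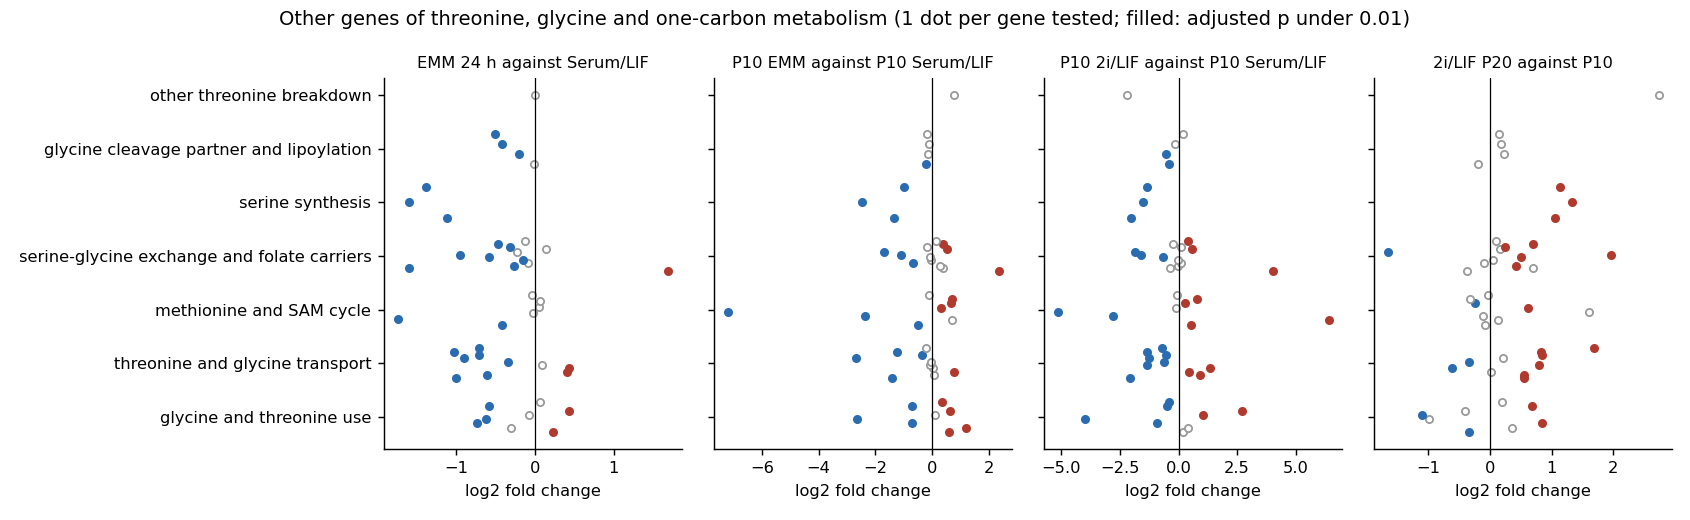
Log2 fold change (x axis, own scale in each panel) of every tested gene of the 7 lists (y axis) in 4 comparisons; filled dots passed an adjusted p of 0.01 (red up, blue down), open grey dots did not. Serine synthesis lies left of 0 for EMM and 2i/LIF against Serum/LIF and right of 0 for 2i/LIF at P20 against P10.

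The genes whose pattern was most like that of Tdh were looked for among 14651 genes tested in both tables, by the smaller of the Pearson correlations of log2 CPM over the 18 passage and the 12 time-course libraries. The first 5 were Tnfrsf21, a death receptor (0.96 and 0.97), Rell1 (0.96 and 0.95), Cpped1, a phosphatase (0.95 and 0.94), Cd81, a tetraspanin (0.93 and 0.93), and Myof, a membrane-repair protein (0.93 and 0.92). Tnfrsf21 had 283 normalized counts in P10 Serum/LIF, 550 in P10 EMM and 764 in P10 2i/LIF, and 304, 279 and 717 in the same media at P20. Gcat came at rank 110, with correlations of 0.78 and 0.76. Amt ran with Tdh over the passage libraries (0.93) and not over the time course (−0.27), while Gldc gave −0.53 and 0.16 and Gcsh −0.41 and −0.19. The points share media and passages in groups of 3 libraries, so these correlations describe the groups.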

How the data were processed

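RNA-seq gene counts of 30 libraries of E14tg2a cells were used, 12 from the time course and 18 from the passage experiment. The time-course table, as deposited, holds whole-number read counts per Ensembl gene. The passage table, as deposited, holds estimated counts, of which 9.982% were not whole, and these were rounded. The submitters' processing notes name STAR, featureCounts, Salmon and DESeq2 and the mm10 build. The study's methods also name HTSeq, and the roles of these tools are not settled by the sources used here. The study's methods state rRNA depletion for RNA-seq without naming a table. The tables were normalized and tested separately. Every column of both was used.

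Counts were scaled by TMM after edgeR's expression filter and tested with edgeR 4.0.16 (quasi-likelihood, R 4.3.3), 1 fit per experiment with all its groups, without a replicate block. Benjamini-Hochberg adjustment ran over all genes tested, and a call is an adjusted p under 0.01. Intervals use the t quantile of the fit. RPKM used merged exon lengths of GENCODE M21. Near copies were found with blastn 2.17.0+. The tests were checked on simulated data, where many changes about as small as the uncalled ones here were missed, so a value that was not called is not shown to be unchanged. DESeq2 1.42.0, other scalings and filters, fits of only the groups compared, replicate blocks and leaving out each library were the alternatives.

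The genes, lists and comparisons were chosen with earlier results of these data known. Every call on the 5 genes is given with its value, and uncalled values for some comparisons only. The rule for list genes took the largest called rise and fall of each list per comparison, with Dld, Shmt2, Mthfd2 and Tha1. Only some of these are printed, and that selection and the other list genes were picked after their values were seen. The study's methods describe the replicates as independent experiments. Where that does not hold for a library, p-values measure only the spread between samples. Same-numbered libraries deviated together in all 3 pairs (correlation over 0.1) between P10 and P20 2i/LIF (0.547, 0.381 and 0.409) and between P10 2i/LIF and P20 Serum/LIF (0.248, 0.106 and 0.104), a pair of groups that was not compared. In the time course the values were 0.0596, 0.51 and 0.604 between Serum/LIF and 9 h, and 0.555, −0.445 and 0.583 between 9 h and 24 h. Between Serum/LIF and 24 h they were −0.0438, −0.504 and 0.419. These pairs use title numbers, which differ from the description numbers for EMM libraries, so shared structure in the time course is not settled. No pair of replicates agreed within sampling noise. RefSeq held the region before the start of 4 of the 5 genes.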

Additional observations from a re-analysis of the deposited data

Results flagged for a closer look

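Differences between media that changed from P10 to P20 were found by a test of the interaction itself in the edgeR fit (P20 less P10, log2 scale). For EMM against Serum/LIF, where 14.7% of all genes passed, the change was −0.78 for Tdh (adjusted p = 0.000111) and −0.61 for Amt (adjusted p = 0.00096). For 2i/LIF against Serum/LIF, where 20% passed, it was −1.01 for Gldc (adjusted p = 0.000583) and 0.47 for Gcsh (adjusted p = 0.00901). That Gcsh call was lost in 10 of 12 fits without 1 library, with library totals and with only the groups compared, and less the chromosome 8 median Gcsh was at 0.08. For EMM against 2i/LIF, where 32.3% passed, it was 1.32 for Gldc (adjusted p = 2.37e-05), −0.52 for Amt (adjusted p = 0.00149), −0.42 for Tdh (adjusted p = 0.00815) and −0.45 for Gcsh (adjusted p = 0.00841). That Tdh call was lost in 10 of 12 fits without 1 library, with library totals and with no filter. The Gcsh call was lost in 9 of 12, under both of these, with at least 10 counts asked of every library and with only the groups compared, and less the chromosome 8 median Gcsh was at −0.16.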

How the results depend on the processing

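Of 1525 values of the 5 genes under another setting, 1383 kept their direction and, where tested, their side of the threshold, 98 lost a call and 8 gained one. Another 20 moved less the chromosome median, 3 of them to the other sign, and 16 tested values changed sign. None of these 19 was past the threshold in either fit. Settings that changed only the threshold reused the main estimates, so direction could not change there. Summing the Gcat identifiers left the counts of the other genes as they were. The 98 lost calls include those removed only by also asking for a log2 size above 1. With library totals the values were −0.00365 for Amt at 24 h, −0.0202 for Gcsh at 3 h and 0.00806 for Gldc in EMM between passages, and with both Gcat identifiers −0.0183 for Gcat in 2i/LIF between passages. Leaving out 1 library gave −0.0924 to 0.0564 for Amt and −0.0473 to 0.108 for Gcat in 2i/LIF between passages, −0.0206 to 0.0401 for Gcat from 3 h to 9 h, −0.0860 to 0.00346 for Gcat and −0.0137 to 0.0165 for Gcsh from 9 h to 24 h, and −0.0389 to 0.0753 for Gcsh in the EMM against Serum/LIF interaction. The cause was not tested where a call moved. Over 17 comparisons 52 calls were made, against 52 with DESeq2, 54 at an adjusted p under 0.05, 50 with library totals alone and 49 with no filter. Summing both Gcat identifiers, chosen after seeing the data, gave 37 calls over the 12 passage comparisons, where no call was gained or lost against the main fit.

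With a log2 size above 1 also asked for, 11 calls were left and Tdh had none, at 0.31, 0.15 and 0.35 against Serum/LIF at 3, 9 and 24 h, −0.16 and 0.20 in the later steps, 0.68, −0.32 and 1.00 at P10, −0.74 and 0.64 at P20, −0.63 in EMM between passages and −0.78 and −0.42 in the interactions. The genes called were then 0 in the 5 time-course comparisons, in EMM against Serum/LIF at P10, P20 and their interaction, and in EMM between passages. They were 1 in both other interactions, in 2i/LIF between passages and in P10 EMM against 2i/LIF, and 2 in P10 2i/LIF against Serum/LIF and P20 EMM against 2i/LIF. Tdh in the 2i/LIF against Serum/LIF interaction passed at an adjusted p under 0.05 (−0.36) and, past 0.01, without P20 Serum/LIF replicate 3 (−0.46, edgeR adjusted p = 0.00319). Less the chromosome 14 median, Tdh moved to 0.31 at 24 h, −0.42 in P10 and −0.91 in P20 EMM against 2i/LIF, 0.82 in P20 2i/LIF against Serum/LIF, and −0.20 and −0.56 in the interactions of 2i/LIF against Serum/LIF and EMM against 2i/LIF. For EMM against 2i/LIF the Tdh interaction was lost with library totals (−0.33) and with no filter (−0.40), and 2 genes were called in each. With library totals, 1 gene was called in the 2i/LIF against Serum/LIF interaction. With only the groups compared, 1 was called there, in 2i/LIF between passages and in Serum/LIF between passages (Gldc), and Gldc passed in P10 EMM against Serum/LIF (0.29). In Serum/LIF between passages 1 gene, Gldc, was called with no filter, and 4 list genes with no filter or DESeq2.

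Leaving out 1 library moved Tdh from −0.46 to −0.29 (2i/LIF against Serum/LIF interaction), from −0.48 to −0.39 (EMM against 2i/LIF interaction) and from −0.33 to −0.30 (P10 EMM against 2i/LIF), and the genes called ran from 1 to 2 and from 2 to 4 in those interactions and from 1 to 2 in 2i/LIF between passages. The replicate block by title number changed no call of the 85 values of the 5 genes. By description number 1 of 15 was lost, Amt at 3 h (−0.18, edgeR adjusted p = 0.012).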
